A study of Sus scrofa with 14 samples.

Results

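Macrophages are the most numerous leukocytes of the resting heart. They recognise and take up dying cells, lipoproteins and haemoglobin through scavenger receptors, mark debris with complement C1q, signal through adaptor proteins that carry an immunoreceptor activation motif, and kill microbes with the phagocyte NADPH oxidase. Their surface receptors shift with their surroundings, and in human monocytes and macrophages glucocorticoids are known to raise the haemoglobin scavenger receptor CD163 and the mannose receptor MRC1. The genes described here are 43 listed markers of macrophages, other myeloid cells, granulocytes and lymphocytes, taken by gene name from the table of FPKM (mapped fragments scaled to transcript length and library size) and ordered by the role of their products. Of the 43, 33 have an entry among the 13644 genes of the table, and all 33 passed the filter of at least 1 FPKM in at least 2 libraries that left 11527 genes for testing. TIMD4, FOLR2, LYZ, CYBB, CSF3R, S100A9, CD3D, CD3E, CD2 and CD79A were not matched by table name and are not analysed here under that name.

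RNAseq was performed on left ventricular slices of pig hearts under 5 conditions, in 14 libraries. MT slices (n = 2) were cultured for 12 days in the cardiac tissue culture model (CTCM), which stretches the tissue and paces it electrically, with 100 nM tri-iodothyronine (T3, a thyroid hormone) and 1 µM dexamethasone (Dex, a synthetic glucocorticoid), and MC slices (n = 2) were cultured for 12 days in CTCM without these additions. TD slices (n = 4) were cultured for 12 days in static medium with electrical pacing and the same T3 and Dex, Ctrl slices (n = 4) in the same static culture without them, and D0 slices (n = 2) were fresh. All culture media held fetal bovine serum, insulin, transferrin, selenium, VEGF and FGF. MT-2 is labelled with T4, not T3. The number of pigs behind the libraries is not given in the sources used here, so the p-values measure the spread between these libraries, which may be technical.

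Several libraries stand apart or go against their labels. Of 6 glucocorticoid-induced genes looked up after the first results, FKBP5 and TSC22D3 were higher in MC than in Ctrl by the test and the others did not pass. FKBP5 had 79.8 and 64.5 FPKM in the libraries labelled MC, against 17.4 to 32.6 FPKM in Ctrl, although the title of MC names no Dex (the treatment entry names it for every sample), and MC stands below for the libraries labelled so. The level in MC lay beside the 73.1 to 89.4 FPKM of TD and above the 55.6 and 51.9 FPKM of MT. TSC22D3 in MC likewise lay near TD, with 50.9 and 55.2 FPKM in MC and 55.3 to 62.4 FPKM in TD, against 22.9 to 30.8 FPKM in Ctrl. Unlike FKBP5, it was higher in MT than in MC, with 55.5 and 67.1 FPKM in MT. DUSP1 had 97.9 and 127 FPKM in MT, 125 and 115 FPKM in MC and 117 to 135 FPKM in TD, against 84.7 to 94.6 FPKM in Ctrl. ZBTB16 had 17.2 and 7.42 FPKM in MC, against 1.86 to 6.41 FPKM in Ctrl. PER1 lay the other way in MC and MT, with 15.04 and 10.3 FPKM in MT and 15.7 and 4.69 FPKM in MC. It had 11.4 to 37.9 FPKM in TD and 16.1 to 32.1 FPKM in Ctrl. KLF9 in MT-2 (38.7 FPKM), MC-2 (39.2 FPKM) and TD-4 (37.6 FPKM) and ZBTB16 in MT-2 (2.68 FPKM) lay inside the range of Ctrl. Between MC and TD, 5 of 11527 genes passed the limma test (0.0434%, 0.0174% higher and 0.026% lower in MC) and 0 of the 33 members, of which 3 had an unadjusted p under 0.05. The MT libraries listed 2335 and 2854 genes at 0, against 595 to 1457 in the other libraries, and of the genes expected to have at least 20 reads they listed 6.31% and 9.06% at 0, against at most 0.533%. TNNT2, cardiac troponin T, had 24.5 and 36.5 FPKM in MT, 4.76 and 3.74 FPKM in MC, 0.176 to 0.848 FPKM in TD and 0.607 to 1.75 FPKM in Ctrl, against 23.3 and 16.5 FPKM in D0. In TNNT2, D0 thus lay far above MC, TD and Ctrl. Other cardiomyocyte genes were low in D0, with 1.31 and 1.32 FPKM of MYH7 and 6.22 and 3.15 FPKM of ACTC1. The collagen gene COL1A1 had 1382 and 1148 FPKM in D0. Whether the D0 libraries stand for intact heart muscle was not tested. Relative depth, from the FPKM step that 1 read makes, ran from 0.47 in MC-2 to 1.201 in TD-2, and absolute depth is unknown.

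Culture was accompanied by higher scavenger receptor and coagulation factor XIII transcripts, while most genes that mark leukocytes as such did not pass the test. MARCO, CD14, MSR1, F13A1, CD53, SPP1 and FCER1G were higher in every culture condition than in D0, and CD163 and MRC1 were higher in MT, MC and TD than in D0. Within static culture, CD163, MARCO, MRC1, F13A1 and CD14 were higher and GPNMB was lower in TD than in Ctrl. Of the 33 members, 22 passed in at least 1 of the 8 comparisons, where 37.0% of all genes tested did, and 11 in none, namely AIF1, C1QA, C1QC, CD48, CORO1A, FCGR1A, PTPRC, SPI1, STAB1, TREM2 and TYROBP. In these bulk libraries fewer cells of a type and less RNA per cell cannot be told apart. Every call below comes from limma on log2(FPKM + 1) over all 11527 genes with Benjamini-Hochberg adjustment at a threshold of 0.05, every fold change is a difference of group means on that scale and so understates the change of low genes, ± is the SE, and the libraries of each called pair of groups did not overlap.

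Markers of other cell types moved in the same comparisons with D0. The 10 endothelial genes, with 9 lower in MT, 10 in MC, 9 in TD and 4 in Ctrl, summed to 153 to 162 FPKM in MT, 91.7 to 106 FPKM in MC, 69.0 to 125 FPKM in TD and 210 to 294 FPKM in Ctrl, against 346 to 402 FPKM in D0. Of the cardiomyocyte genes, 5 of 5 tested were lower in MC, TD and Ctrl and 0 in MT, and the 6 with an entry summed to 33.3 to 52.2 FPKM in MT, 5.49 to 7.52 FPKM in MC, 0.476 to 1.23 FPKM in TD and 1.01 to 2.44 FPKM in Ctrl, against 25.5 to 36.7 FPKM in D0. CIDEC, a lipid droplet protein of adipocytes, was higher than D0 in MT, MC and TD. Of 9 fibroblast genes tested, 4 were lower in MT, 5 in MC, 3 in TD and 2 in Ctrl. In the same order, 2, 2, 1 and 1 were higher. Of 8 smooth muscle and pericyte genes tested, 4, 2, 3 and 2 were lower in that order and 0 higher. Of all genes tested, 18.1% were lower in MT, 11.3% in MC, 8.9% in TD and 4.95% in Ctrl. The shares higher were 9.38%, 6.34%, 5.01% and 3.5% in the same order. The part of these cell types in the results was not tested.

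**Figure D1:**
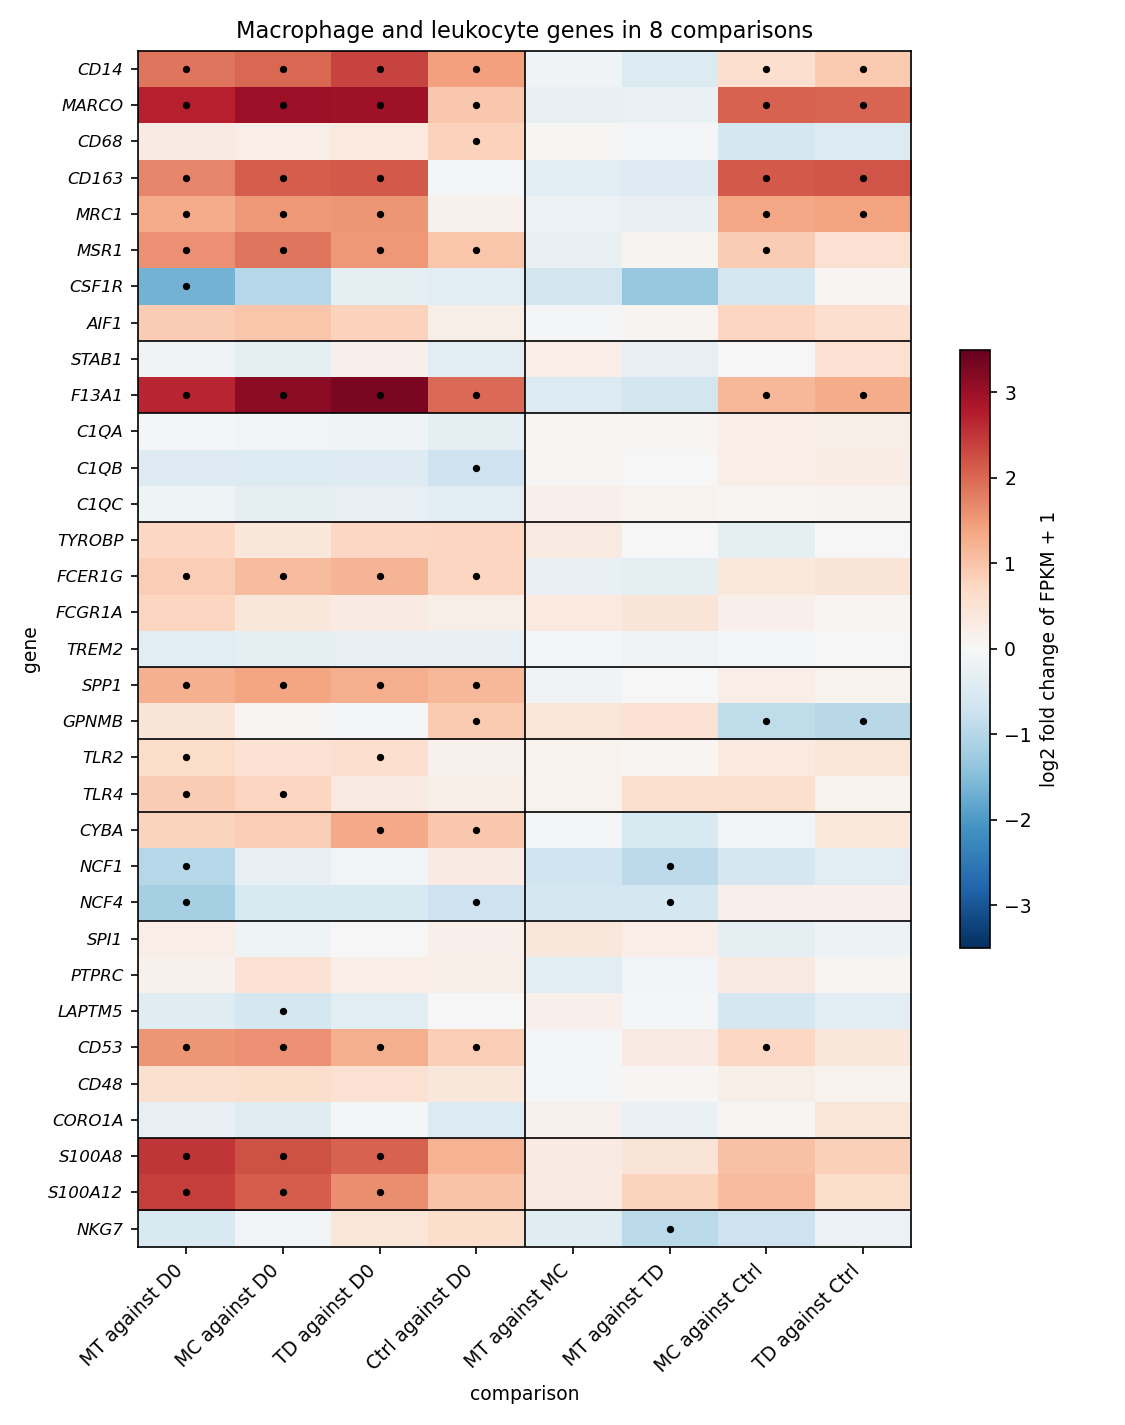
Log2 fold change of FPKM + 1 (colour) of the 33 members (down the page, by role, roles parted by lines) in the 8 comparisons (across, those with D0 on the left), with a dot where the adjusted p passed 0.05. Dots run through MARCO, CD14, MSR1, F13A1, CD53, SPP1 and FCER1G in all 4 comparisons with D0, and no dot stands in the column of MT against MC.

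Against D0, 13 members were higher and 3 lower in MT, where 9.38% of all genes tested were higher and 18.1% lower. In MC 12 were higher and 1 lower, against 6.34% and 11.3% of all genes. In TD 13 were higher and 0 lower, against 5.01% and 8.9%, with 19 members at an unadjusted p under 0.05. In Ctrl 10 were higher and 2 lower, against 3.5% and 4.95%. In either direction, 27.5%, 17.6%, 13.9% and 8.45% of all genes passed in MT, MC, TD and Ctrl in that order. The median log2 fold change of the members was 0.63 in MT, 0.50 in MC, 0.42 in TD and 0.21 in Ctrl, and that of all genes -0.11, -0.05, -0.02 and -0.02 in the same order. These 4 comparisons share the 2 D0 libraries.

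The calls against D0 do not rest equally on the libraries. In Ctrl against D0, 12 members passed with all libraries and 2, CD14 and F13A1, without either D0 library. FCER1G and CD68 also missed the threshold there without Ctrl-2, Ctrl-3 or Ctrl-4, CYBA without any single Ctrl library, and NCF4 without Ctrl-3 or Ctrl-4. In TD against D0, CD14, CD163, CD53, F13A1, FCER1G, MARCO, MRC1, MSR1 and SPP1 passed under every setting tried, CYBA missed it without D0-1, and S100A8 and S100A12 missed it without D0-1, D0-2 or TD-4. TLR2 missed it without D0-1, D0-2, TD-2, TD-3 or TD-4. In MC against D0, FCER1G and S100A12 missed it without D0-1, D0-2 or MC-2, TLR4 without D0-1, D0-2 or MC-1, and LAPTM5 and S100A8 without any single one of the 4 libraries. In MT against D0, MRC1 missed it without D0-2, TLR4 without D0-1 or D0-2, CSF1R, TLR2 and S100A8 without D0-1, D0-2 or MT-2, and FCER1G and NCF1 without D0-1, D0-2 or MT-1. Down-weighting libraries by their spread moved the calls in both directions, to 23 in Ctrl and 7 in MT, where CD163, CSF1R, FCER1G, MRC1, NCF1, S100A8, SPP1, TLR2 and TLR4 missed the threshold. S100A12 in MT missed it with 1 weight per condition (adjusted p = 0.0722).

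Scavenger and surface receptors, the largest role with 8 of the 33 members, held the most calls by number. Of the 8, 5 were higher than D0 in MT, MC and TD and 4 in Ctrl. By share the granulocyte genes lay above that, with 2 of 2 higher in MT, MC and TD. CD163 (ENSSSCG00000033146, chromosome 5 from 63300200 to 63334497) takes up haemoglobin bound to haptoglobin and marks resident and anti-inflammatory macrophages. CD163 had 16.6 and 23.7 in MT, 31.3 and 22.0 in MC, 23.6, 30.01, 35.5 and 22.0 in TD and 4.06, 3.01, 6.25 and 8.69 in Ctrl, against 5.55 and 5.12 FPKM in D0. All MT, MC and TD libraries lay above all Ctrl and D0 libraries, and Ctrl spanned D0. Its log2 fold change was 2.20 ± 0.26 in TD against Ctrl (adjusted p = 0.000352), 2.15 ± 0.31 in MC against Ctrl (adjusted p = 0.00278) and -0.39 ± 0.36 in MT against MC (adjusted p = 0.698). Against D0 it was 1.72 ± 0.36 in MT (adjusted p = 0.00426), 2.11 ± 0.36 in MC (adjusted p = 0.00173), 2.16 ± 0.31 in TD (adjusted p = 0.000408) and -0.04 ± 0.31 in Ctrl (adjusted p = 0.985). The MT call was lost after rescaling every library to the same sum and with weights by library or by condition. Between 566 and 6627 reads lay behind each CD163 value, so counting error was small beside the spread between libraries.

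MARCO (ENSSSCG00000015716, chromosome 15 from 24502935 to 24541286) binds bacteria and particles and MRC1 (ENSSSCG00000011038, chromosome 10 from 44107926 to 44226734) binds mannose-rich glycans. MARCO had 14.7 and 25.2 in MT, 23.9 and 23.1 in MC, 27.0, 22.8, 19.1 and 24.0 in TD and 6.35, 4.64, 4.49 and 4.36 in Ctrl, against 2.47 and 1.73 FPKM in D0. MRC1 had 8.69 and 9.67 in MT, 12.3 and 9.51 in MC, 11.01, 11.5, 14.9 and 8.001 in TD and 3.39, 2.26, 4.18 and 4.96 in Ctrl, against 3.39 and 2.92 FPKM in D0. For both genes the MT, MC and TD libraries lay above every Ctrl and D0 library, and for MARCO every Ctrl library lay above D0 as well. In TD against Ctrl the log2 fold change was 2.03 ± 0.18 for MARCO (adjusted p = 2.88e-05) and 1.40 ± 0.21 for MRC1 (adjusted p = 0.0019). In MC against Ctrl it was 2.05 ± 0.22 for MARCO (adjusted p = 0.000266) and 1.37 ± 0.25 for MRC1 (adjusted p = 0.00905), and the MRC1 call was lost without either MC library. In Ctrl against D0 MARCO passed, at 0.94 ± 0.22 (adjusted p = 0.0157), and MRC1 stood at 0.14 ± 0.25 (adjusted p = 0.913).

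**Figure D2:**
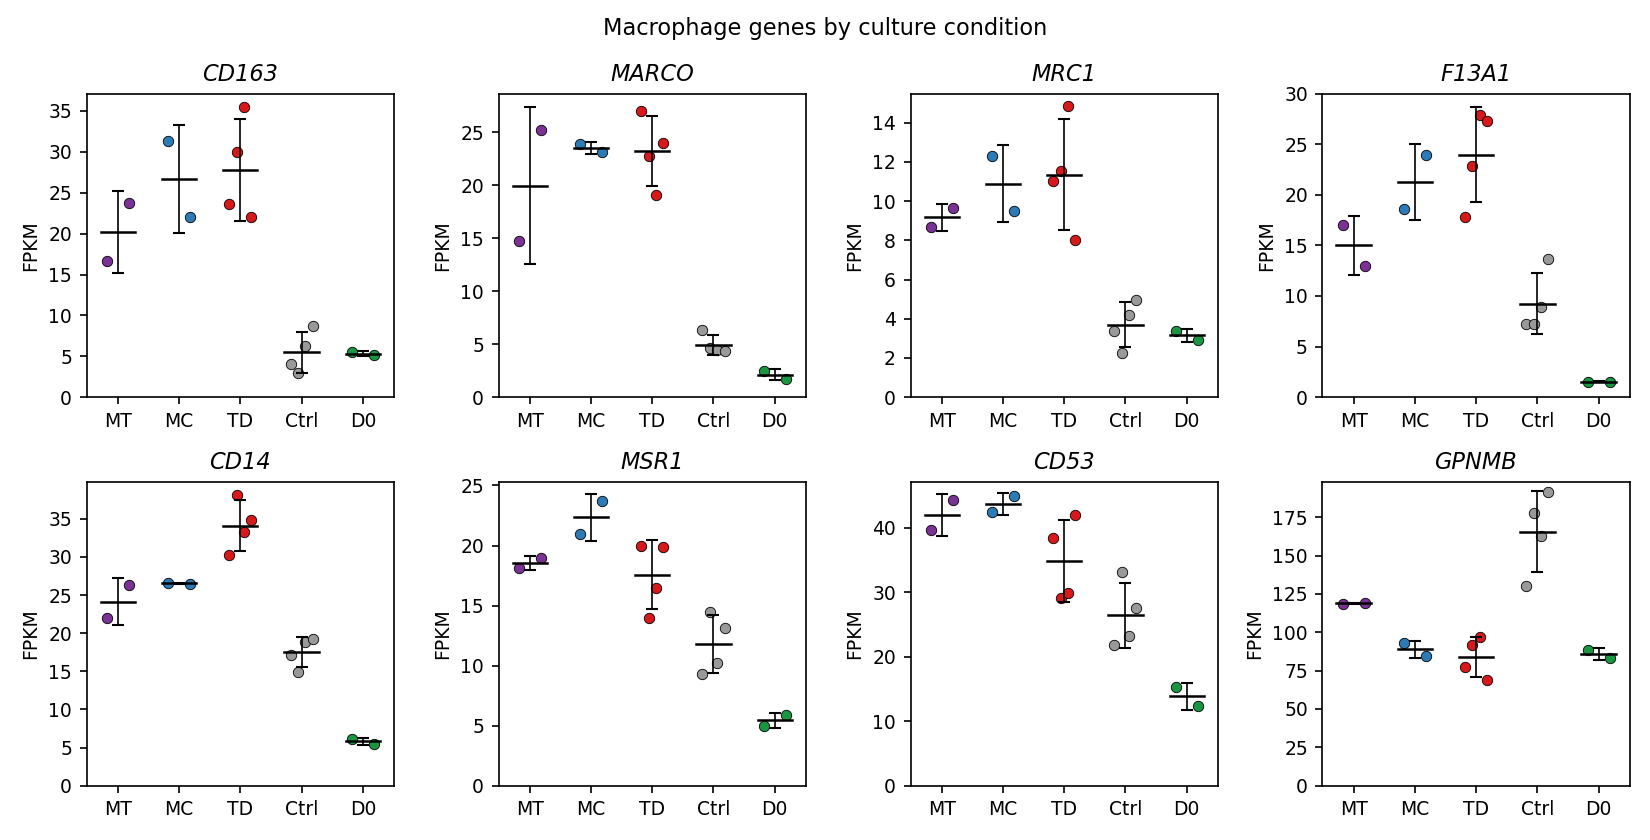
FPKM of 8 members in each library (points), by condition, with the mean (line) and SD (bar) of each condition, n = 2 for MT, MC and D0 and n = 4 for TD and Ctrl. CD163 ran from 16.6 to 35.5 FPKM in MT, MC and TD libraries, against 3.01 to 8.69 FPKM in Ctrl and D0, and GPNMB was highest in Ctrl.

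CD14, the co-receptor that hands lipopolysaccharide to TLR4, was higher in Ctrl than in D0 and higher in TD than in Ctrl. In CTCM it was not called higher with T3 and Dex (MT against MC). CD14 (ENSSSCG00000014369, chromosome 2 from 142348036 to 142349686) was called in all 4 comparisons with D0. CD14 had 22.0 and 26.3 in MT, 26.5 and 26.5 in MC, 30.2, 38.2, 33.3 and 34.8 in TD and 17.1, 14.9, 18.8 and 19.2 in Ctrl, against 6.13 and 5.50 FPKM in D0. TD was highest, MT and MC lay between TD and Ctrl, and D0 was lowest, with no library of 1 of these levels inside another. The log2 fold change was 1.44 ± 0.15 in Ctrl against D0 (adjusted p = 6.34e-05) and 0.92 ± 0.12 in TD against Ctrl (adjusted p = 0.000886), the TD call being lost after rescaling to a common sum. In MC against Ctrl it was 0.58 ± 0.15 (adjusted p = 0.041), a call lost without any single Ctrl or MC library.

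MSR1 (ENSSSCG00000006979, chromosome 17 from 3859903 to 3939612), the scavenger receptor that takes up modified lipoproteins, was higher than D0 in every culture condition. MSR1 had 18.2 and 19.0 in MT, 21.0 and 23.7 in MC, 19.96, 13.98, 16.5 and 19.9 in TD and 9.34, 14.4, 10.2 and 13.2 in Ctrl, against 4.99 and 5.89 FPKM in D0. TD and Ctrl overlapped, with TD-2 below Ctrl-2, while MT, MC and Ctrl did not overlap. Its log2 fold change was 0.97 ± 0.19 in Ctrl against D0 (adjusted p = 0.00621) and 0.89 ± 0.19 in MC against Ctrl (adjusted p = 0.0214), a call lost without Ctrl-1, Ctrl-3, MC-1 or MC-2. CD68 (ENSSSCG00000017956, chromosome 12 from 52874754 to 52877256), a lysosomal glycoprotein of macrophages and the most abundant receptor of the group, was highest in Ctrl. CD68 had 25.4 and 38.7 in MT, 25.9 and 35.7 in MC, 24.7, 38.2, 35.1 and 35.4 in TD and 41.6, 49.0, 43.4 and 50.3 in Ctrl, against 26.7 and 24.9 FPKM in D0. Every Ctrl library lay above every other library, and in Ctrl against D0 the log2 fold change was 0.81 ± 0.21 (adjusted p = 0.0298). In TD against Ctrl it was -0.47 ± 0.17 and missed the threshold (adjusted p = 0.216).

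CSF1R (ENSSSCG00000014441, chromosome 2 from 151102138 to 151130311), the receptor of the macrophage growth factor CSF1, was lower in MT than in D0. CSF1R had 5.88 and 1.29 in MT, 5.67 and 4.85 in MC, 5.01, 13.4, 12.3 and 7.36 in TD and 7.41, 6.90, 9.24 and 11.15 in Ctrl, against 11.6 and 11.3 FPKM in D0. TD overlapped D0 and Ctrl, and MT-2 was the lowest library. In MT against D0 the log2 fold change was -1.64 ± 0.47 (adjusted p = 0.0203), and without MT-2 the call was lost. AIF1, a calcium-binding protein of activated macrophages, lay between 11.3 and 35.1 FPKM and passed in no comparison. Its log2 fold change against D0 was 0.89 ± 0.38 in MT (adjusted p = 0.101), 0.97 ± 0.38 in MC (adjusted p = 0.0963) and 0.79 ± 0.33 in TD (adjusted p = 0.145).

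F13A1 (ENSSSCG00000024310, chromosome 7 from 3751290 to 3900797), the A subunit of coagulation factor XIII that resident macrophages make, had the largest rise over D0 in TD, MC and Ctrl among the members. F13A1 had 17.0 and 12.96 in MT, 18.6 and 23.9 in MC, 17.8, 22.9, 27.9 and 27.3 in TD and 7.20, 7.24, 8.94 and 13.6 in Ctrl, against 1.502 and 1.54 FPKM in D0. All culture libraries lay above D0, and TD lay above Ctrl, while MT-2 lay just below the highest Ctrl library. The log2 fold change against D0 was 2.65 ± 0.29 in MT (adjusted p = 4.84e-05), 3.13 ± 0.29 in MC (adjusted p = 1.66e-05), 3.29 ± 0.25 in TD (adjusted p = 1.86e-06) and 1.98 ± 0.25 in Ctrl (adjusted p = 0.000258). In TD against Ctrl it was 1.31 ± 0.20 (adjusted p = 0.00272) and in MC against Ctrl 1.15 ± 0.25 (adjusted p = 0.0206), the MC call being lost without Ctrl-1, Ctrl-3, MC-1 or MC-2. STAB1, a clearance receptor of the same class of cells, stayed between 0.638 and 2.62 FPKM and passed in no comparison. The table holds an entry without a symbol (ENSSSCG00000014812) that the reference names FOLR2, a folate receptor of resident macrophages, which is not counted among the 33. FOLR2 had 8.56 and 14.6 in MT, 10.6 and 17.1 in MC, 16.5, 13.1, 13.3 and 18.3 in TD and 9.80, 10.1, 10.4 and 9.53 in Ctrl, against 4.82 and 4.69 FPKM in D0. All culture libraries lay above D0, with log2 fold changes of 1.09 in MT (adjusted p = 0.00802), 1.33 in MC (adjusted p = 0.00356), 1.49 in TD (adjusted p = 0.000492) and 0.93 in Ctrl (adjusted p = 0.0192), and 0.56 in TD against Ctrl (adjusted p = 0.141).

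CD163, MARCO, MRC1 and F13A1 moved together in TD against Ctrl, and the bases before their start are shown for that reason. Each run is the 250 bases before the gene's start in the RefSeq annotation of Sscrofa11.1, 5′ to 3′ on the gene's strand, at chr5:63299950-63300199 (+) for CD163, chr15:24502685-24502934 (+) for MARCO, chr10:44107676-44107925 (+) for MRC1 and chr7:3900798-3901047 (-) for F13A1. Capitals mark matches on either strand to GAGGAA, the core bound by the myeloid factor PU.1, or to AGAACA, a core hexamer of the glucocorticoid receptor.
CD163: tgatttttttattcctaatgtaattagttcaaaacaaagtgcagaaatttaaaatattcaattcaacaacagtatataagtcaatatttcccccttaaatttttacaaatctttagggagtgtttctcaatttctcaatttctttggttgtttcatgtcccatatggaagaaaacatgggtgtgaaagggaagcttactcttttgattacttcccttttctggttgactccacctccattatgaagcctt
MARCO: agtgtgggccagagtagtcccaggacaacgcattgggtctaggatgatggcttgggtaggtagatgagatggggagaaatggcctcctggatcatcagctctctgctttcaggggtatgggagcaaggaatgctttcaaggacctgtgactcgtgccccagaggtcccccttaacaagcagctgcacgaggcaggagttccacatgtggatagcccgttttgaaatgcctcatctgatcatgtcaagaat
MRC1: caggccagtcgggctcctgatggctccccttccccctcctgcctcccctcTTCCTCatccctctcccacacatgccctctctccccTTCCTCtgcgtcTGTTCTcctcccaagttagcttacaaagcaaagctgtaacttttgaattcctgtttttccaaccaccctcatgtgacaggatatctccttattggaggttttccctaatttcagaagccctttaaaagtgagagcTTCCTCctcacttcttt
F13A1: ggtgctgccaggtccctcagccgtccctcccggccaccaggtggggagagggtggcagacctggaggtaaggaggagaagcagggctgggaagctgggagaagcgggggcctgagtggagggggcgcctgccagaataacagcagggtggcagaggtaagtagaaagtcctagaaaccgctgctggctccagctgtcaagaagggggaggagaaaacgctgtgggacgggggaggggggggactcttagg
MRC1 held 3 matches to GAGGAA and 1 to AGAACA, all on the opposite strand, and the other runs held no match. GAGGAA stood in 13 of the 33 members' runs (39.4%), against 4296 of 19556 RefSeq gene starts (22.0%). AGAACA stood in 4 of 33 (12.1%, in C1QB, GPNMB, MRC1 and MSR1), against 10.3% of all starts. The full palindromic glucocorticoid receptor element was found in 0 of the 33 and in 1 of the 19556. A match is a description of letters, and the absence of a match says nothing of more distant sequence.

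FKBP5 was 1 of the 6 glucocorticoid-induced genes looked up, and PER1 among them was lower in MT and MC than in every Ctrl library. In the plot of CD163 and MARCO against FKBP5, the MT, MC and TD libraries lay at 51.9 to 89.4 FPKM of FKBP5, against 17.4 to 32.6 FPKM in Ctrl and D0. Whether the MC libraries had received Dex was not tested.

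**Figure D3:**
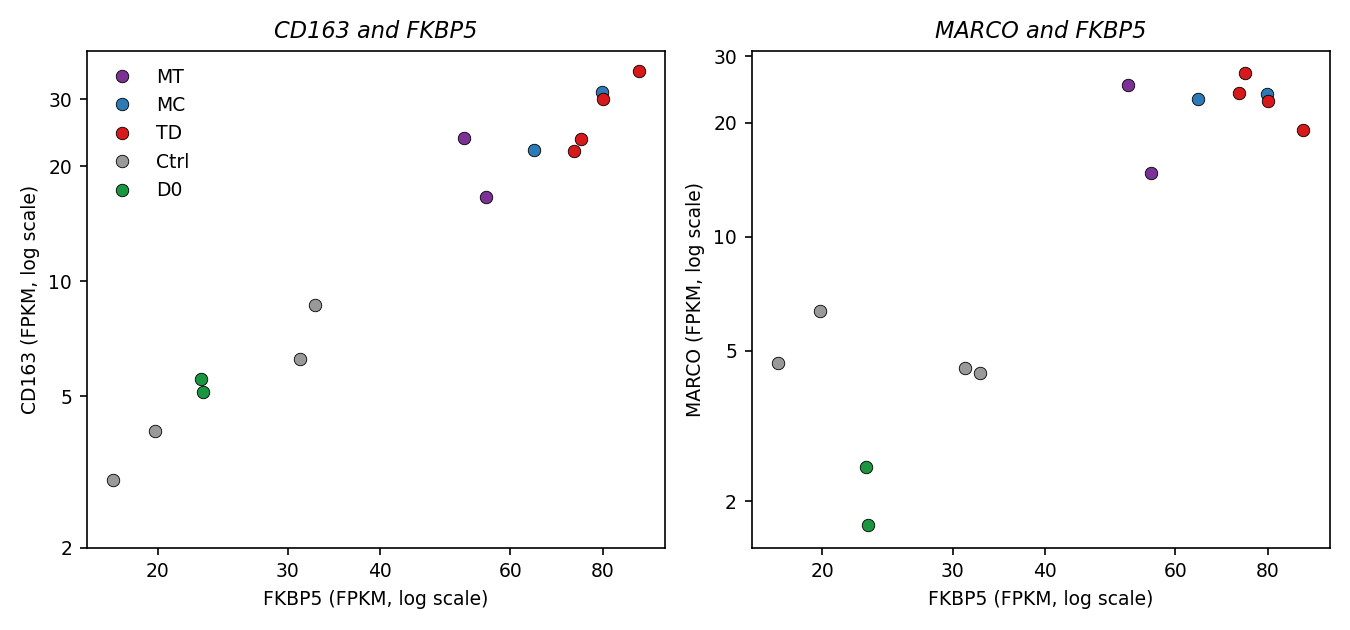
FPKM of CD163 (left) and MARCO (right) against FPKM of FKBP5 in each of the 14 libraries, both axes on a log scale, coloured by condition. The MC libraries, at 64.5 and 79.8 FPKM of FKBP5, lie among or beside the TD libraries in both panels, and Ctrl and D0 lie apart at lower levels.

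Complement C1q, which tags debris for clearance, is made of 3 chains from neighbouring genes on chromosome 6 and had few calls. C1QC, the most abundant chain, gave 73.8 and 142 FPKM in MT, 79.1 and 104 FPKM in MC, 81.5 to 101.4 FPKM in TD and 76.4 to 95.6 FPKM in Ctrl, against 116 and 112 FPKM in D0. Its values overlapped across MT and D0 and it passed in no comparison, nor did C1QA, which lay between 38.5 and 67.3 FPKM. C1QB (ENSSSCG00000033512, chromosome 6 from 80601680 to 80606076) was the chain with a call. C1QB had 31.5 and 28.4 in MT, 27.2 and 30.8 in MC, 27.3, 28.3, 30.2 and 32.9 in TD and 20.1, 28.9, 22.5 and 27.8 in Ctrl, against 42.5 and 39.6 FPKM in D0. Every cultured library lay below D0, and in Ctrl against D0 the log2 fold change was -0.72 ± 0.16 (adjusted p = 0.0137), a call lost without either D0 library and after rescaling to a common sum.

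The adaptors TYROBP and FCER1G carry the signals of many myeloid receptors, among them TREM2, which binds lipids, and FCGR1A, the high-affinity IgG receptor. TYROBP (ENSSSCG00000002919, chromosome 6 from 45309199 to 45312562) was the most abundant. TYROBP had 47.5 and 71.0 in MT, 42.7 and 50.5 in MC, 60.2, 61.4, 45.1 and 71.6 in TD and 44.7, 82.2, 54.2 and 63.1 in Ctrl, against 40.4 and 30.3 FPKM in D0. All cultured libraries lay above D0, yet the log2 fold changes of 0.71 ± 0.29 in MT (adjusted p = 0.0896), 0.40 ± 0.29 in MC (adjusted p = 0.368), 0.73 ± 0.25 in TD (adjusted p = 0.0795) and 0.75 ± 0.25 in Ctrl (adjusted p = 0.101) missed the threshold. FCER1G passed in all 4 comparisons with D0, with 24.0 to 47.3 FPKM in MT, MC and TD and 21.1 to 29.4 FPKM in Ctrl, against 14.3 and 14.8 FPKM in D0. Its log2 fold change was 0.85 ± 0.24 in MT (adjusted p = 0.0203), 1.11 ± 0.24 in MC (adjusted p = 0.00778), 1.18 ± 0.21 in TD (adjusted p = 0.00182) and 0.74 ± 0.21 in Ctrl (adjusted p = 0.0468). TREM2 stayed between 1.59 and 3.15 FPKM, with both D0 libraries above all others, and FCGR1A between 0.489 and 3.41 FPKM, and neither passed in any comparison.

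SPP1, osteopontin, and GPNMB, a glycoprotein of lysosomes, mark lipid-laden and remodelling macrophages, and both are also made by other cells of injured tissue. SPP1 (ENSSSCG00000009216, chromosome 8 from 131077786 to 131085334) was the most abundant of the 33 members. SPP1 had 434 and 437 in MT, 482 and 464 in MC, 535, 408, 370.1 and 461 in TD and 388, 549.9, 317 and 399.6 in Ctrl, against 190.1 and 174 FPKM in D0. Every cultured library lay above D0 and the culture conditions overlapped. The log2 fold change against D0 was 1.26 ± 0.26 in MT (adjusted p = 0.00343), 1.38 ± 0.26 in MC (adjusted p = 0.0028), 1.27 ± 0.22 in TD (adjusted p = 0.00159) and 1.15 ± 0.22 in Ctrl (adjusted p = 0.00479).

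GPNMB (ENSSSCG00000032241, chromosome 9 from 92037428 to 92071501) was, like CD68, highest in Ctrl. GPNMB had 119 and 119 in MT, 92.7 and 84.8 in MC, 77.5, 91.7, 97.2 and 68.8 in TD and 130.4, 177, 163 and 192 in Ctrl, against 88.7 and 83.1 FPKM in D0. Ctrl lay above every other library, and TD, MC and D0 overlapped. In TD against Ctrl the log2 fold change was -0.97 ± 0.15 (adjusted p = 0.00262) and in MC against Ctrl -0.88 ± 0.18 (adjusted p = 0.0178), the MC call being lost without either MC library. In Ctrl against D0 it was 0.92 ± 0.18 (adjusted p = 0.00606), and in MT against D0 0.46 ± 0.21 (adjusted p = 0.122).

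The Toll-like receptors TLR2 and TLR4, which sense bacterial lipoproteins and lipopolysaccharide, were low throughout. TLR4 had 4.83 and 4.83 in MT, 5.39 and 3.51 in MC, 3.30, 3.19, 2.94 and 2.43 in TD and 2.75, 3.28, 1.92 and 2.77 in Ctrl, against 2.30 and 2.06 FPKM in D0. MT and MC lay above Ctrl and D0, with TD overlapping Ctrl. TLR4 (ENSSSCG00000005503, chromosome 1 from 258044610 to 258054641) passed in MT against D0, with a log2 fold change of 0.88 ± 0.22 (adjusted p = 0.0122), and in MC against D0, with 0.76 ± 0.22 (adjusted p = 0.0349). TLR2 had 1.94 to 2.94 FPKM in MT, MC and TD and 1.29 to 1.79 FPKM in Ctrl, against 1.17 and 1.29 FPKM in D0, and passed in MT against D0, with 0.63 ± 0.20 (adjusted p = 0.0345), and in TD against D0, with 0.57 ± 0.17 (adjusted p = 0.0442). Both MT calls were lost with library weights and after rescaling.

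The phagocyte NADPH oxidase makes superoxide from a membrane core, of which CYBA is a subunit, and cytosolic subunits that include NCF1 and NCF4. CYBA (ENSSSCG00000031493, chromosome 6 from 1015212 to 1021422) is also used by non-phagocytic oxidases. CYBA had 54.6 and 77.0 in MT, 49.9 and 93.9 in MC, 92.7, 73.7, 86.5 and 137 in TD and 74.8, 72.8, 66.7 and 77.7 in Ctrl, against 35.7 and 39.3 FPKM in D0. All cultured libraries lay above D0, and the log2 fold change was 1.32 ± 0.27 in TD (adjusted p = 0.00432) and 0.94 ± 0.27 in Ctrl (adjusted p = 0.0451), with 0.85 ± 0.31 in MC (adjusted p = 0.0729) and 0.78 ± 0.31 in MT (adjusted p = 0.078).

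NCF1 and NCF4 were lower in MT than in TD and D0, and in MT each was listed at 0 in 1 library. NCF1 had 0 and 0.901 in MT, 1.30 and 1.21 in MC, 1.23, 1.45, 1.53 and 2.21 in TD and 1.68, 2.69, 2.83 and 2.42 in Ctrl, against 2.13 and 1.40 FPKM in D0. NCF4 had 0.270 and 0 in MT, 0.506 and 1.00 in MC, 0.848, 0.791, 0.767 and 0.559 in TD and 0.673, 0.657, 0.429 and 0.399 in Ctrl, against 1.61 and 1.47 FPKM in D0. MT lay below all other libraries for both genes, but the MT libraries list many expressed genes at 0, so a 0 there is given only as listed. In MT against D0 the log2 fold change was -0.99 ± 0.29 for NCF1 (adjusted p = 0.0242) and -1.17 ± 0.20 for NCF4 (adjusted p = 0.00112). In MT against TD it was -0.90 ± 0.25 for NCF1 (adjusted p = 0.0403) and -0.62 ± 0.17 for NCF4 (adjusted p = 0.0379), calls lost without TD-2, TD-3, TD-4 or MT-1 for NCF1 and without TD-1, TD-2, TD-3 or MT-2 for NCF4. In Ctrl against D0, NCF4 was also lower, with -0.72 ± 0.17 (adjusted p = 0.0179). NCF4 reached 1 FPKM only in D0-1, D0-2 and MC-2. It thus passed the filter through D0, and its falls against D0 are not independent of that selection.

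Genes that mark leukocytes or myeloid cells as such mostly did not pass, with 1 of the 6 higher than D0 in each culture condition. SPI1 encodes PU.1, the transcription factor of myeloid identity, and lay between 21.3 and 40.03 FPKM, with log2 fold changes against D0 of 0.23 ± 0.22 in MT, -0.16 ± 0.22 in MC, 0.00 ± 0.19 in TD and 0.18 ± 0.19 in Ctrl. PTPRC, the tyrosine phosphatase CD45 of all leukocytes, lay between 1.73 and 3.23 FPKM. CD48, an adhesion molecule of leukocytes, lay between 3.29 and 6.93 FPKM and CORO1A, an actin regulator, between 4.14 and 7.60 FPKM. None of them passed in any comparison, though for CD48 every cultured library lay above the 3.75 and 3.29 FPKM of D0. LAPTM5 (ENSSSCG00000025034, chromosome 6 from 87363911 to 87390371), a lysosomal membrane protein of leukocytes, was the most abundant. LAPTM5 had 46.8 and 36.0 in MT, 34.0 and 38.1 in MC, 35.9, 43.0, 44.5 and 44.96 in TD and 51.5, 65.8, 47.7 and 55.7 in Ctrl, against 55.6 and 55.8 FPKM in D0. TD and MC lay below D0 and the Ctrl libraries, and the call in MC against D0 of -0.62 ± 0.19 (adjusted p = 0.043) was lost without any single one of the 4 libraries. CD53 had 39.6 and 44.3 in MT, 42.5 and 44.9 in MC, 38.3, 29.0, 29.8 and 41.9 in TD and 21.8, 33.1, 23.2 and 27.5 in Ctrl, against 15.4 and 12.3 FPKM in D0. CD53 (ENSSSCG00000006800, chromosome 4 from 109306552 to 109335876), a tetraspanin of leukocytes, was the member that rose, with every cultured library above D0. Its log2 fold change was 1.54 ± 0.23 in MT (adjusted p = 0.000472), 1.60 ± 0.23 in MC (adjusted p = 0.000508), 1.26 ± 0.20 in TD (adjusted p = 0.000715) and 0.87 ± 0.20 in Ctrl (adjusted p = 0.0134), and in MC against Ctrl it was 0.72 ± 0.20 (adjusted p = 0.0481), a call lost without Ctrl-1, Ctrl-3, Ctrl-4, MC-1 or MC-2.

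**Figure D4:**
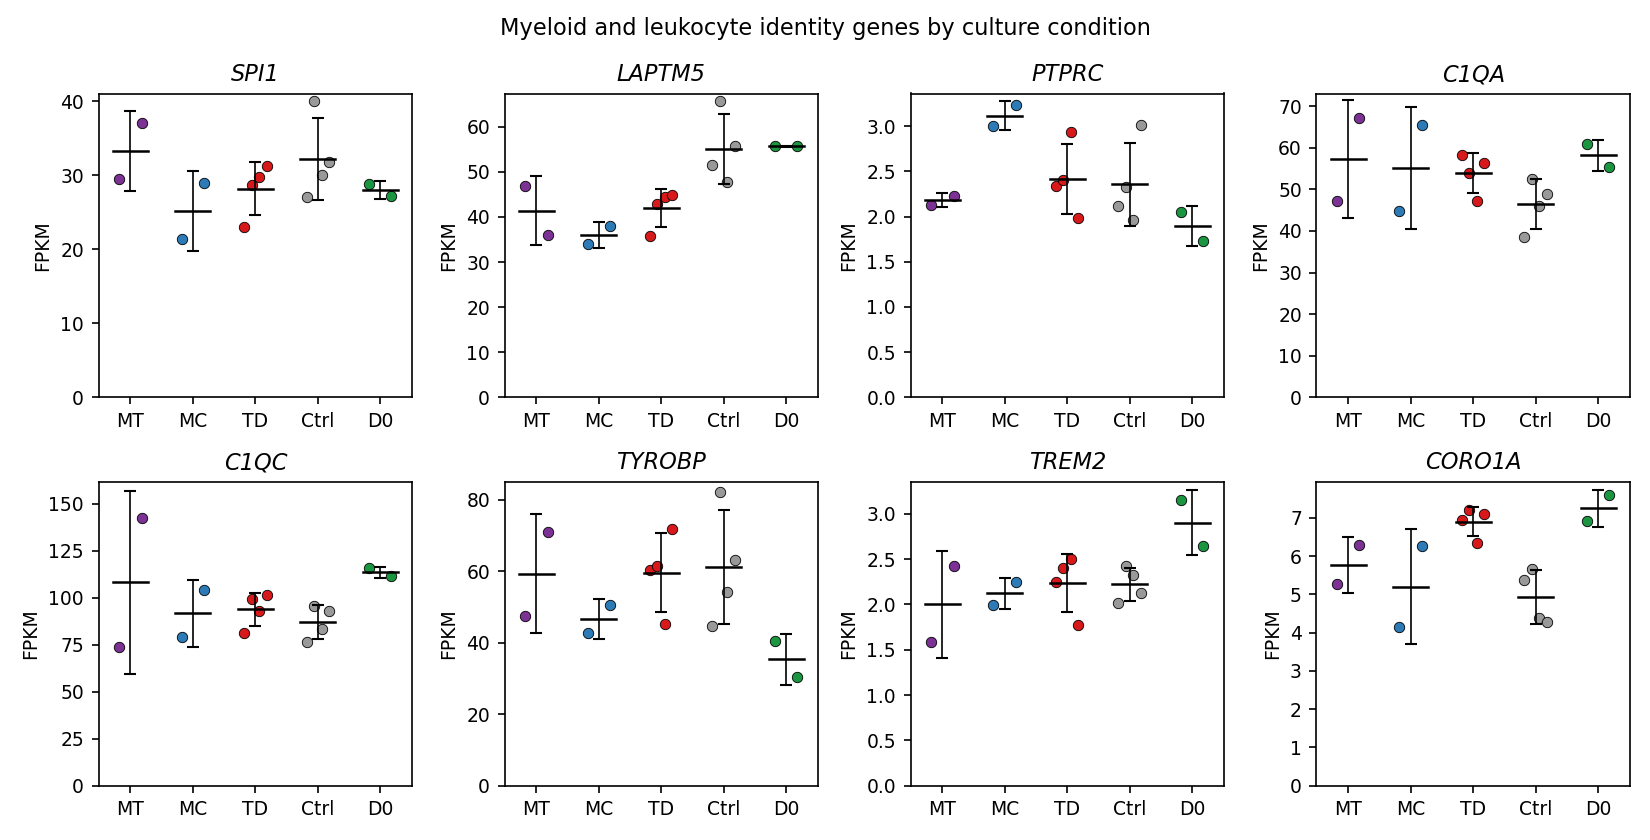
FPKM of 8 chosen members of myeloid cells or leukocytes in each library (points), by condition. Lines give the mean and bars the SD, n = 2 for MT, MC and D0 and n = 4 for TD and Ctrl. The 8 were picked from several roles and do not stand for the 6 leukocyte and myeloid identity genes as a set. SPI1 lay between 21.3 and 40.03 FPKM and PTPRC between 1.73 and 3.23 FPKM over all 14 libraries. The conditions overlap in most of these panels. Among the 6 identity genes, CD53 was higher than D0 in every culture condition. For CD48 every cultured library lay above D0.

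S100A8 and S100A12 are calcium-binding alarmins of neutrophils and monocytes, and both varied widely within conditions. S100A8 had 21.9 and 57.2 in MT, 24.2 and 35.1 in MC, 67.5, 18.6, 9.99 and 32.9 in TD and 12.5, 19.1, 12.2 and 12.9 in Ctrl, against 5.70 and 5.10 FPKM in D0. S100A12 had 65.1 and 76.2 in MT, 38.5 and 82.0 in MC, 86.0, 28.9, 21.7 and 49.1 in TD and 25.1, 38.1, 21.7 and 21.3 in Ctrl, against 11.7 and 12.97 FPKM in D0. All cultured libraries lay above D0 for both genes, and TD spanned nearly the whole range of the cultures. TD-1, with the highest S100A8 and S100A12, had a summed FPKM of 444246, TD-4 409531, MC-2 458928, MT-1 412404 and MT-2 457496, against 287151 to 350763 in all others. For S100A12 the values lay at 49.1 FPKM or more in these libraries and at 38.5 FPKM or less in the others, while S100A8 in MT-1 lay below that in MC-1. With summed FPKM as a covariate, the calls of both genes against D0 in MT, MC and TD held, while leaving out single libraries ended those of S100A8 in MT, MC and TD and of S100A12 in MC and TD.

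S100A8 (ENSSSCG00000006590, chromosome 4 from 96209670 to 96210603) had log2 fold changes against D0 of 2.52 ± 0.64 in MT (adjusted p = 0.012), 2.24 ± 0.64 in MC (adjusted p = 0.0301) and 2.06 ± 0.56 in TD (adjusted p = 0.025), and in Ctrl 1.23 ± 0.56 (adjusted p = 0.258). S100A12 (ENSSSCG00000032857, chromosome 4 from 96225691 to 96227030) had 2.42 ± 0.52 in MT (adjusted p = 0.00453), 2.11 ± 0.52 in MC (adjusted p = 0.0142) and 1.64 ± 0.45 in TD (adjusted p = 0.0261), and in Ctrl 1.01 ± 0.45 (adjusted p = 0.241). Neither gene passed in TD against Ctrl, at 0.83 ± 0.45 for S100A8 (adjusted p = 0.469) and 0.63 ± 0.37 for S100A12 (adjusted p = 0.494). Of 11 further neutrophil genes 4 have an entry and 2 could be tested, and the summed level of the 4 was 0 to 6.36 FPKM in MT, 3.32 to 5.03 FPKM in MC, 2.92 to 6.05 FPKM in TD and 1.30 to 3.98 FPKM in Ctrl, against 2.47 to 3.02 FPKM in D0.

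**Figure D5:**
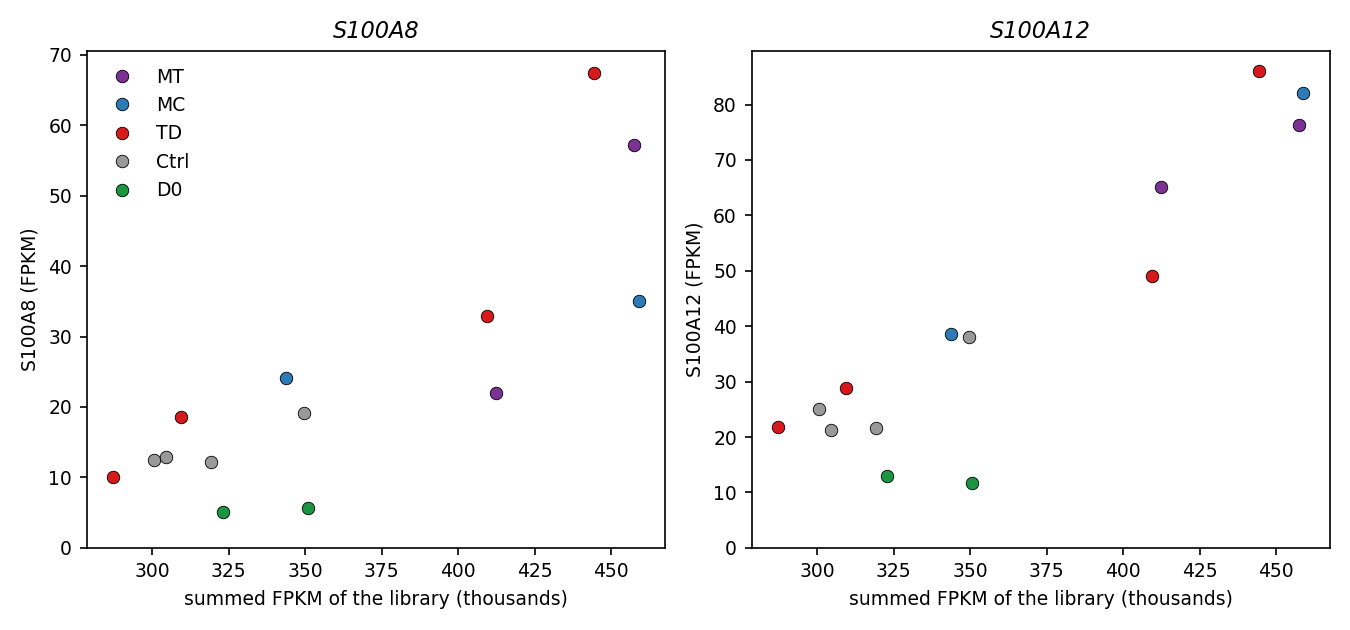
FPKM of S100A8 (left) and S100A12 (right) against the summed FPKM of the library (its axis scaled down as labelled), 1 point per library, coloured by condition. The 5 libraries with a summed FPKM of 409531 or more hold the highest S100A12 values, from 49.1 to 86.0 FPKM, and include libraries of TD, MC and MT.

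Few lymphocyte genes could be described. Of the 5 lymphocyte genes, NKG7 (ENSSSCG00000003231, chromosome 6 from 58496089 to 58497827), a granule protein of natural killer and T cells, has an entry. NKG7 had 5.59 and 13.4 in MT, 12.3 and 11.9 in MC, 13.96, 19.5, 18.4 and 20.1 in TD and 16.9, 22.8, 20.9 and 22.7 in Ctrl, against 13.6 and 12.6 FPKM in D0. TD lay above MT and MC, and TD overlapped Ctrl. In MT against TD the log2 fold change was -0.95 ± 0.26 (adjusted p = 0.0352), with MT-1 lowest, and the call was lost without TD-2, TD-3, TD-4 or MT-1. Of 18 further T cell genes 4 have an entry, with a summed level of 1.91 and 2.32 FPKM in MT, 1.88 and 2.11 FPKM in MC, 1.30 to 1.80 FPKM in TD and 1.95 to 2.72 FPKM in Ctrl, against 2.13 and 2.26 FPKM in D0, and of 9 B and plasma cell genes 1 has an entry, at 0 to 0.662 FPKM over all libraries.

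Between culture conditions, TD against Ctrl had 5 members higher and 1 lower, where 1.26% of all genes were higher and 2.22% lower, with 15 of the 33 members at an unadjusted p under 0.05. The median log2 fold change of the members was 0.22, against -0.01 over all genes. CD163, MARCO, MRC1, F13A1 and GPNMB passed under every setting tried, each left-out library included, and CD14 missed the threshold after rescaling to a common sum (adjusted p = 0.0596). MC against Ctrl had 7 members higher and 1 lower, where 6.45% of all genes passed, 2.3% higher and 4.16% lower, and the median was 0.22, against -0.04 over all genes. CD163 and MARCO passed there under every setting tried, the calls fell to 2 without either MC library, and they fell to 4 without Ctrl-1 or without Ctrl-3. MC against Ctrl shares the Ctrl libraries with TD against Ctrl. In both, endothelial markers were lower, with the summed level of 10 endothelial genes at 69.0 to 125 FPKM in TD and at 91.7 and 106 FPKM in MC, against 210 to 294 FPKM in Ctrl, and its part in the results was not tested.

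MT against MC had 0 members past the limma test, where 3.19% of all genes passed, with 2 members, NCF1 and NCF4, at an unadjusted p under 0.05. The median log2 fold change of the members was -0.06, against -0.04 over all genes. The 95% interval of the difference was -1.17 to 0.40 for CD163 and -0.82 to 0.27 for MARCO. It was -0.85 to 0.41 for MRC1 and -1.10 to 0.15 for F13A1. The differences between TD and Ctrl lay outside these intervals, which use 1 spread for all conditions. The median SD per gene on the log2 scale ran from 0.0723 in D0 to 0.323 in MT. The libraries labelled MC held FKBP5 near the level of TD, and its part here was not tested. Without MT-1, CSF1R, FCGR1A and NCF4 passed, and without MT-2, NCF1 and NKG7. MT against TD had 0 members higher and 3 lower, NKG7, NCF1 and NCF4, where 2.99% of all genes were higher and 7.14% lower, and the median was -0.03, against -0.06 over all genes. No member passed in MT against TD without TD-2, without TD-3 or without the D0 libraries, where NCF4 was below the filter, and 1 passed without TD-4. The change with T3 and Dex in CTCM (MT against MC) minus that in static culture (TD against Ctrl) passed for 1 member above 0 and 5 below. Of all genes 4.67% passed, 2.06% above and 2.6% below 0. None of these members passed with weights by library or by condition.

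Other macrophage genes were counted by list. In TD against Ctrl, 3.48% of all genes tested passed, 1.26% higher and 2.22% lower, and 1 call in a list of 20 genes is near that share. Of 20 further macrophage and monocyte genes tested, MS4A7, a surface protein of mature macrophages, was the gene higher in TD than in Ctrl, with 18.1 to 25.9 FPKM in TD, against 6.33 to 10.8 FPKM in Ctrl and a log2 fold change of 1.18 ± 0.19 (adjusted p = 0.00357). Against D0, 7 of the 20 were higher and 3 lower in MT, 5 and 3 in MC, 4 and 0 in TD and 5 and 0 in Ctrl. For all genes these shares were 9.38% and 18.1% in MT, 6.34% and 11.3% in MC, 5.01% and 8.9% in TD and 3.5% and 4.95% in Ctrl. MS4A7 was the largest rise there in MT, MC and TD, with 2.00 ± 0.27 (adjusted p = 0.000251), 2.25 ± 0.27 (adjusted p = 0.000125) and 2.22 ± 0.23 (adjusted p = 3.36e-05) in that order, and HMOX1, which degrades haem, in Ctrl, with 1.15 (adjusted p = 0.00442). The largest fall was that of LYVE1, a hyaluronan receptor of resident macrophages, in MT, with -1.30 ± 0.33 (adjusted p = 0.0123), and that of SLCO2B1, an organic anion transporter, in MC, with -0.96 ± 0.26 (adjusted p = 0.0228). Of 15 lipid-laden and osteoclast-like macrophage genes, LPL, lipoprotein lipase, was higher in TD than in Ctrl and 6 were lower, ACP5, MMP9, APOE, CD9, ATP6V0D2 and CTSD. ACP5, a lysosomal phosphatase of osteoclasts and macrophages, had the largest fall, with 15.7 to 20.5 FPKM in TD, against 43.1 to 65.3 FPKM in Ctrl and a log2 fold change of -1.41 ± 0.22 (adjusted p = 0.00306). MMP12, macrophage elastase, had 13.02 and 17.8 FPKM in MT, 8.27 and 24.1 FPKM in MC, 5.78 to 13.95 FPKM in TD and 7.60 to 14.2 FPKM in Ctrl, against 0 and 0.125 FPKM in D0. Over the 15 genes, 5 were higher and 2 lower than D0 in MT, 4 and 3 in MC, 3 and 3 in TD and 5 and 0 in Ctrl, set against the same shares of all genes. The largest fall there was that of ACP5 in MT, with -1.02 ± 0.32 (adjusted p = 0.0305), and in TD, with -1.42 ± 0.28 (adjusted p = 0.00334), and that of APOE, an apolipoprotein, in MC, with -1.62 ± 0.25 (adjusted p = 0.000843).

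Of 22 genes of leukocyte signalling and the cytoskeleton, ALOX5AP, which presents arachidonic acid for leukotriene synthesis, was the gene that passed in TD against Ctrl. That count is near the share of all genes tested that passed there, 3.48%. It had 59.1 and 78.2 FPKM in MT, 53.4 and 88.5 FPKM in MC, 51.5 to 82.3 FPKM in TD and 10.8 to 14.7 FPKM in Ctrl, against 6.28 and 6.87 FPKM in D0. The MT, MC and TD libraries lay above all Ctrl libraries, which lay above D0, and the log2 fold change was 2.11 ± 0.19 in TD against Ctrl (adjusted p = 3.37e-05). Over the 22 genes, 4 were higher and 4 lower than D0 in MT, 4 and 3 in MC, 4 and 2 in TD and 3 and 1 in Ctrl. For all genes the shares were 9.38% and 18.1% in MT and 6.34% and 11.3% in MC. They were 5.01% and 8.9% in TD and 3.5% and 4.95% in Ctrl. The share lower in MT was near or below that of all genes in this list and in both lists above. Lists of other leukocytes left 0 to 3 genes each for the test. ZBTB46, a transcription factor of dendritic cells and endothelium, was lower than D0 in every culture condition, with -1.56 in MT (adjusted p = 0.000193), -1.36 in MC (adjusted p = 0.000662), -1.08 in TD (adjusted p = 0.000912) and -0.94 in Ctrl (adjusted p = 0.00406). KIT, the stem cell factor receptor of mast cells, was lower in TD than in Ctrl, with -0.90 (adjusted p = 0.0129). CCR7 of T cells was also called lower in TD than in Ctrl, as was 1 of the 2 entries named GZMA, a gene of cytotoxic cells. CCR7 was near the floor, with 0.102 to 0.280 FPKM in TD and 0.448 to 1.17 FPKM in Ctrl. CCR7 reached 1 FPKM in Ctrl-1 and Ctrl-2 alone, so it passed the filter only through Ctrl, the higher group. ELANE of neutrophils, listed at 0 in both MT libraries, was called lower in MT than in MC, TD and D0. None of the 3 genes of the CSF1 and granulocyte growth factor system passed in the 8 comparisons.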

How the data were processed

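RNAseq of pig heart slices was available as 1 table of 14 libraries (2 MT, 2 MC, 4 TD, 4 Ctrl, 2 D0), grouped by sample titles. Per the study's methods, poly-A libraries were sequenced and base-called with CASAVA, and HISAT2 placed the reads on Sscrofa11.1, while the labels name hiPS-CMs and another library kit for the extraction. The authors deposited FPKM, which scale a gene's fragments to transcript length and to library size, so a shift in a few abundant genes moves all others. For the counting tool, annotation release and versions, the entry is: not given in the sources used here. DESeq2, which the study used, needs counts and was not run. The labels name T3 and Dex in the treatment entry of every sample, D0 included, so groups rest on titles.

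FPKM were used as deposited, as log2(FPKM + 1), for the 11527 of 13644 genes that reached 1 FPKM in 2 or more libraries. A single limma 3.58.1 model (R 4.3.3, lmFit and eBayes with trend) held the 14 libraries and a mean for each condition, with Benjamini-Hochberg adjustment over all genes and a threshold of 0.05. Tables were made in Python 3.11.15 with pandas 2.3.3 and numpy 2.4.6, and plots in matplotlib 3.10.9. The script was tested on simulated data. FPKM steps were solved as whole reads (tolerance 0.02) for relative depth, the reads behind a value and the genes expected to have 20 reads.

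The members and lists were chosen with earlier results of these data known. Values per library are given for called members whose groups do not overlap, at most the 8 largest in each direction per comparison, and for the member with the highest mean in each role, and other members are given by range. Of the other lists, counts are given, with the largest rise and fall against D0 and in TD against Ctrl for the larger lists. The largest fall against D0 in the list of leukocyte signalling and the cytoskeleton is not reported here. MC against TD, the interaction, the 6 glucocorticoid-induced genes (FKBP5, TSC22D3, ZBTB16, PER1, KLF9, DUSP1) and the FOLR2 entry were added after values were seen. Alternatives were a pseudocount of 0.1 FPKM, no filter, rescaling to a common sum (TPM), arrayWeights, a fit of the 2 conditions alone, a replicate block and each library left out, and, chosen after seeing the data, fits without the MC, MT or D0 libraries, summed FPKM as a covariate and 1 weight per condition. Leaving out a D0, MC or MT library leaves 1, which is assumed to vary like the other conditions.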

Additional observations from a re-analysis of the deposited data

Results flagged for a closer look

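The change with T3 and Dex was measured in CTCM (MT against MC) and in static culture (TD against Ctrl), and the difference between these changes (CTCM minus static, from limma over all 11527 genes, of which 4.67% passed) passed for 6 of the 33 members. MARCO differed by -2.30 on the log2 scale (adjusted p = 0.00141), with -0.27 in CTCM and 2.03 in static culture. CD163 differed by -2.59 (adjusted p = 0.00593), with -0.39 in CTCM and 2.20 in static culture. MRC1 differed by -1.62 (adjusted p = 0.0218), F13A1 by -1.78 (adjusted p = 0.0133) and CD14 by -1.06 (adjusted p = 0.0138), each below 0 in CTCM and above 0 in static culture. GPNMB differed by 1.39 (adjusted p = 0.00937), with 0.42 in CTCM and -0.97 in static culture. None of the 6 passed with arrayWeights or with 1 weight per condition, MARCO and CD163 passed after rescaling to a common sum, MRC1 missed the threshold without MC-1 and F13A1 without MC-2. The libraries labelled MC, the baseline of the CTCM comparison, held FKBP5 at 79.8 and 64.5 FPKM, against 17.4 to 32.6 FPKM in Ctrl, and the part of that in the difference was not tested.

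Among 66 groups of 4 libraries (the TD and the Ctrl libraries for each member), 2 held a library far from the others, where chance sets about 1 in 20 groups apart. MARCO was 6.35 FPKM in Ctrl-1, against 4.36 to 4.64 FPKM in the other Ctrl libraries. S100A8 was 19.1 FPKM in Ctrl-2, against 12.2 to 12.9 FPKM in the other Ctrl libraries.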

How the results depend on the processing

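Of 1179 recomputed single-gene calls from 77 results, 958 kept their direction and side of the threshold, 221 missed the threshold and none changed direction. The counts of members called moved by over 1.5 times under these settings, and the cause was not tested. With arrayWeights, 23 members passed in Ctrl against D0 (12 in the report), 22 in TD against D0 (13), 7 in MT against D0 (16), 10 in TD against Ctrl (6) and 0 in MT against TD (3). With 1 weight per condition, 22 passed in Ctrl against D0, 20 in TD against D0, 6 in MT against D0 and 0 in MT against TD. In a fit of the 2 conditions alone, 10 passed in MT against D0 and 0 in MT against TD, and without the D0 libraries 0 passed in MT against TD. Rescaled to a common sum, 4 passed in MC against Ctrl (8 in the report), 2 higher and 2 lower. In MT against D0 the rescaled count moved by less than 1.5 times, with 8 higher and 5 lower (13 and 3 in the report). That scaling moved the median of all genes to -0.49 in MT against D0, -0.28 in MC against D0, -0.16 in TD against Ctrl and -0.33 in MC against Ctrl. With each library left out in turn, the counts ran from 2 to 11 in Ctrl against D0, 9 to 13 in TD against D0, 8 to 11 in MC against D0, 9 to 19 in MT against D0, 6 to 7 in TD against Ctrl, 2 to 7 in MC against Ctrl, 0 to 3 in MT against MC and 0 to 4 in MT against TD.

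Whether the replicate numbers pair the libraries is not settled. Over 22 same-numbered pairs the deviations correlated at -0.50 to 0.41, and pairs of unlike number were not compared. With the replicate number as a block, 6 passed in Ctrl against D0, 4 in MC against Ctrl, 0 in MT against TD and 6 in TD against Ctrl. FPKM without counts leave absolute depth unknown, the conditions with 2 libraries limit every comparison that uses them, and genes listed at 0 in MT cannot be read as absent.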
